A study of Bos taurus with 27 samples.

Results

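Genes for 7 plasma membrane exchangers that move fatty acid anions, protons and bicarbonate were followed through fattening in the rumen epithelium (RE) of Japanese Black beef cattle. The genes were SLC16A1, SLC16A3, SLC9A2, SLC9A3, SLC26A3, SLC4A2 and SLC4A4, and their probes were taken as all non-control probes that carried one of these gene names. Of the 14952 gene names on the array, 6 of the 7 were found, each with 1 probe printed once, and no probe was named SLC9A2. The same 9 castrated cattle, each fitted with a rumen fistula, were biopsied in the early, middle and late stages, at 14, 21 and 29 months of age. All 9 were fed concentrate with rice straw as forage, and the amount of concentrate given was increased as fattening went on. The makeup of the concentrate and its ratio to forage also differed between stages. The authors report the highest concentrate intake in the middle stage. No group without this diet was sampled, so age, time on the diet and the ration of each stage cannot be told apart. Total RNA of the 27 biopsies was labeled with Cy3 and hybridized to 27 one-color arrays. The middle stage was compared with the early stage (first period), the late with the middle stage (second period), and the late with the early stage (total period), within animals.

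Microbes in the rumen ferment feed to volatile fatty acids, which the RE absorbs partly as the free acid and partly as the anion in exchange for bicarbonate. The cells remove the protons that enter with the acid by sodium/proton exchange at the membrane, and they import bicarbonate to buffer the rest. SLC16A1 (MCT1) and SLC16A3 (MCT4) carry lactate, ketone bodies and other monocarboxylates together with a proton. SLC9A2 (NHE2) and SLC9A3 (NHE3) exchange sodium for protons. SLC26A3 (DRA) and SLC4A2 (AE2) exchange chloride for bicarbonate, and SLC4A4 (NBCe1) carries sodium together with bicarbonate.

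A probe is a 60-base DNA strand that stands for its gene on the array. Because every value below rests on a single probe per gene, the probes that could be taken as coding sequence are shown, 5′ to 3′. Each of them can be read in at least 1 frame without a stop codon before its end, and the capitals in the SLC4A4 probe mark the TGA that closes its frame. The SLC16A3 and SLC26A3 probes are not shown, as their place in the transcript was not settled.
SLC16A1: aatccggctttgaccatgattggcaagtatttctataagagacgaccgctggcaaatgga
SLC9A3: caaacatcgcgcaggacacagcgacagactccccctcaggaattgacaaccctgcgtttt
SLC4A2: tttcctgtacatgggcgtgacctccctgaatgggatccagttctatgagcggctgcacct
SLC4A4: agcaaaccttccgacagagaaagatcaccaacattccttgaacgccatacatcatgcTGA

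On the UMD 3.1 bovine assembly, the SLC16A1 probe lay at chr3:30557485-30557544 and the SLC4A2 probe at chr4:114449737-114449796, both on the plus strand. The SLC9A3 probe, at chr20:71757354-71757671 on the plus strand, covered 318 bases of the genome with 60 bases of probe, so it joined exons across an intron. The SLC4A4 probe, at chr6:88537712-88537907 on the plus strand, covered 196 bases and also crossed an intron. The probes of SLC16A3, at chr19:51244145-51244204, and SLC26A3, at chr4:49059028-49059087, lay on the minus strand. No other probe on the array had the sequence of any of the 6.

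The measured level was the log2 processed signal of the probe minus the array median, so 0 marks the brightness of the middle probe of the array. Levels of different probes were not compared. Of the 6 probes, 5 were measured, meaning that the scanner software called them well above background on every array of at least 1 stage. The SLC4A4 probe was not well above background on any of the 27 arrays, with processed signals of 1.06 to 4.28, and no fold change or direction is given for it. Because the RE was measured in bulk, fewer cells of a type and less RNA per cell cannot be told apart.

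The arrays of the middle stage were dimmer than the others. The median processed signal was 8.22 to 28.7 at the middle stage, against 35.2 to 48.6 at the early stage and 32.2 to 47.0 at the late stage, and between 48.8% and 71.6% of probes were well above background at the middle stage. The median log2 change of all 15008 probes was 0.32 in the first period and −0.27 in the second, against 0.08 and 0.10 for the 6797 bright probes, which passed that call on each of the 27 arrays. Of 10 stratified epithelium markers, 10 were well above background throughout the early and late stages and 9 throughout the middle stage. Their summed log2 level spanned 10.78 to 11.40 early, 9.87 to 11.36 in the middle and 10.93 to 11.15 late. Involucrin (IVL), made by cells nearing cornification, had the largest dip of the 10, with mean levels of 8.89, 6.90 and 9.48, while TP63, DSG1, DSG3, DSC3 and PKP1 had higher means at the middle than at the early stage (DSG3 5.35 against 4.90). The red blood cell list was 6.71 to 7.63 at the middle stage, above the 5.28 to 6.09 of the early and 5.48 to 6.49 of the late stage. HBA carried that sum, while HBB, ALAS2 and SLC4A1 were not well above background on any middle array. The summed levels of 5 smooth muscle markers were 5.96 to 7.86, 5.58 to 9.11 and 6.16 to 6.91 for the stages in order, those of 6 fibroblast markers were 6.46 to 9.55, 6.49 to 10.00 and 6.14 to 8.66, those of 5 endothelial markers were 4.31 to 5.14, 3.89 to 5.62 and 4.11 to 5.04, and those of 7 leukocyte markers were 4.20 to 5.16, 3.67 to 4.81 and 4.10 to 5.29. CDH5 of endothelium and ITGAM of leukocytes were not well above background on any array. Of the leukocyte list, the means of PTPRC and CD3E were lower late than early (0.29 against 1.02 and −2.20 against −1.14). Those of CD3G and CD68 were higher late (2.57 against 1.82 and 3.41 against 3.01), and that of CD14 was 3.13 against 3.15. The protocol in the labels names neutrophils and liver as the source of the RNA, whereas the tissue label and the keratins KRT5, KRT14 and KRT15, with mean levels of 7.04 to 9.24, were those of a stratified epithelium. The part of brightness and of other cell types in the changes below was not tested, except where a value is given.

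In the first period, 4 of the 5 measured probes passed an adjusted *P* of 0.05 in limma. SLC9A3 rose, and SLC26A3, SLC4A2 and SLC16A3 fell. Of all 15008 probes, 66.5% passed, 45.3% by a rise and 21.3% by a fall, and 61.7% passed of the 10165 measured probes (those that, like the 5, stood clear of background throughout a stage). In the second period, SLC26A3 and SLC4A2 rose and no member fell, which made 2 of 5 called, against 71.5% of all probes and 66.9% of measured probes, 39.0% by a rise. In the total period, SLC9A3 rose and SLC16A3 fell, again 2 of 5, against 20.1% of all probes, with 11.2% rising and 8.93% falling. With a fold change of at least 2 added, only SLC26A3 was called, in the first and second periods, where 31.4% and 39.0% of all probes were.

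**Figure D1:**
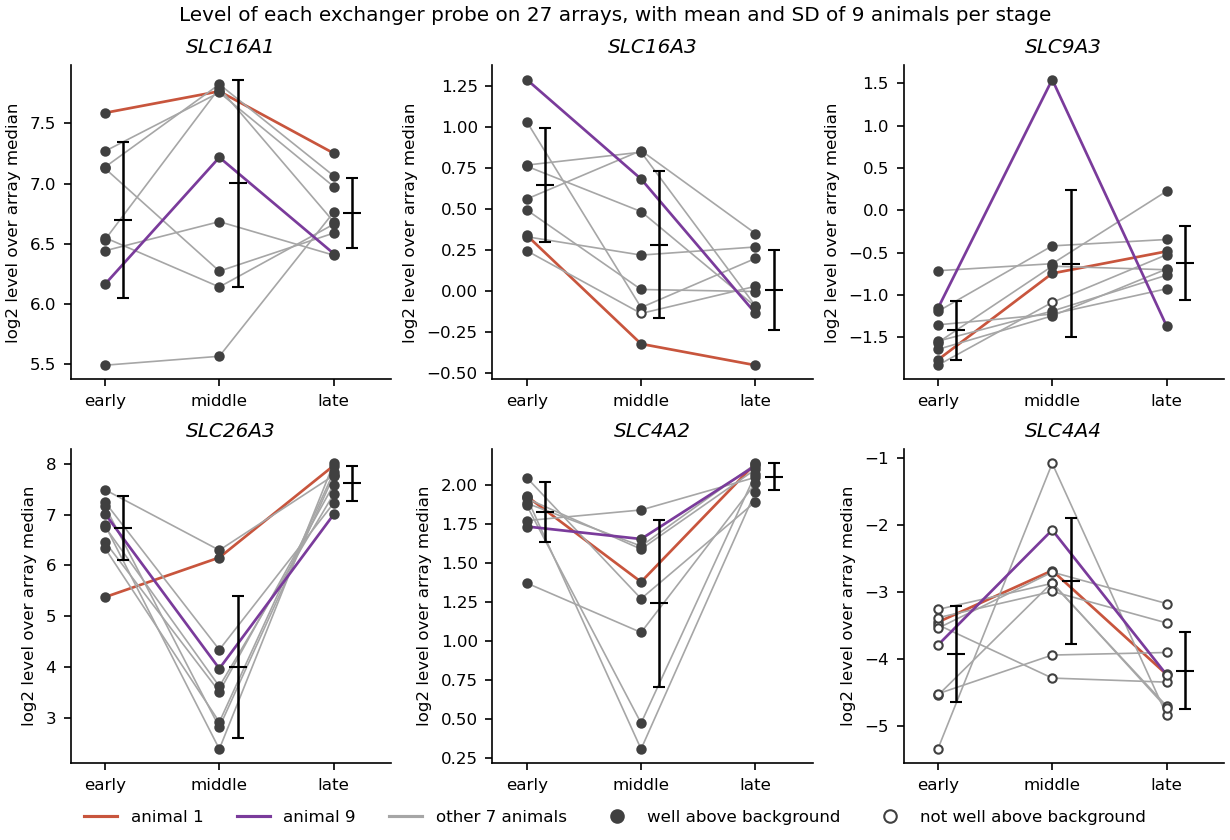
Log2 level of each exchanger probe over the array median (vertical axis, a separate scale in each panel) at the early, middle and late stages, with 1 line per animal and the mean and SD of 9 animals beside each stage. SLC26A3 and SLC4A2 dipped at the middle stage, animal 9 stood apart for SLC9A3, and all SLC4A4 points are open because none was well above background.

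SLC26A3, the chloride/bicarbonate exchanger known for congenital chloride diarrhea, changed most. Its level averaged 6.74 ± 0.63 (SD, n = 9) early, 4.00 ± 1.40 in the middle stage and 7.62 ± 0.34 late. The early arrays ran from 5.38 through a median of 6.79 to 7.49, the middle arrays from 2.38 through 3.62 to 6.30, and the late arrays from 7.00 through 7.76 to 8.01. The spread at the middle stage came mainly from animals 1 and 7, at 6.15 and 6.30, while the other 7 animals lay at or below 4.34. Animal 1 was also the lowest at the early stage, and its level overlapped the middle stage.

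Between the early and middle stages, SLC26A3 fell by 2.74 on the log2 scale (SE 0.41, adjusted *P* = 1.94e-05), a 6.67-fold decrease. It was lower at the middle stage in 8 of 9 animals, by changes of −4.41 to −1.19, and higher by 0.78 in animal 1. In the second period it rose by 3.62 (adjusted *P* = 4.53e-07), a 12.3-fold increase, in 9 of 9 animals, as did 16.5% of all probes. Every late array lay above every middle array, as for 10.3% of all probes. Among the 6797 bright probes, 2 fell more in the first period and 3 rose more in the second. The late stage was 0.88 above the early stage (adjusted *P* = 0.144), higher in 7 of 9 animals, and animal 1 had the largest difference, 2.59. This difference passed with only these stages in the limma fit (adjusted *P* = 0.0220) and by the methods' t-test, the paired test that the study used, adjusted over all probes (adjusted *P* = 0.0460), and missed the threshold by the exact sign-flip test (adjusted *P* = 0.0520). Without the 3 middle arrays that had under 60% of probes well above background, those of animals 4, 8 and 9, the changes were −2.21 (adjusted *P* = 0.000477) and 3.09 (adjusted *P* = 1.53e-05).

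Slide 2 alone held arrays of more than 1 stage. Slide 1 held the early arrays of animals 1 to 8, slide 2 the early array of animal 9 with the middle arrays of animals 1 to 7, slide 3 the middle arrays of animals 8 and 9, and slides 4 and 5 the late arrays. On the first scan day, which held slides 1 and 2, SLC26A3 fell by 2.46 (adjusted *P* = 0.00433). Within slide 2, the 1 early and 7 middle arrays came from different animals, so this comparison was not paired. The change there was −2.84. Blocking on slide as a fixed effect gave −1.39 (SE 1.70, adjusted *P* = 0.654), and as a random effect −2.86 (adjusted *P* = 0.00195). All late arrays lay on slides of their own and were scanned on days of their own. Neither slide nor scan day can therefore be told apart from stage in the second and total periods.

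SLC4A2, the anion exchanger that most epithelia carry on the basolateral side, had the same order of stages with smaller differences. Its level averaged 1.83 ± 0.19 (SD, n = 9) early, 1.24 ± 0.54 in the middle stage and 2.05 ± 0.09 late. Early arrays ran from 1.37 through a median of 1.88 to 2.05, middle arrays from 0.31 through 1.38 to 1.84, and late arrays from 1.89 through 2.07 to 2.14. Animals 4 and 7 were lowest at the middle stage, at 0.31 and 0.48. Between the early and middle stages SLC4A2 fell by 0.58 (SE 0.16, adjusted *P* = 0.00300), with a decrease in 8 of 9 animals. In the second period it rose by 0.81 (adjusted *P* = 0.000138) in 9 of 9 animals, as did 16.5% of all probes. Every late value lay above every middle value, as for 10.3% of all probes. The late and early stages differed by 0.23 (adjusted *P* = 0.343 in limma, 0.0492 by the methods' t-test and 0.0429 by the exact sign-flip test). Under cyclic loess normalization, which fits brightness trends between arrays, the changes of SLC4A2 were −0.01 (adjusted *P* = 0.954) and 0.11 (adjusted *P* = 0.491). With the slide as a random block the first-period change was −0.49 (adjusted *P* = 0.0903), with the slide as a fixed block −0.86 (adjusted *P* = 0.386) and within slide 2 −0.64 (adjusted *P* = 0.525), while on the first scan day alone it fell by 0.75 (adjusted *P* = 0.0110).

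SLC9A3, the apical sodium/proton exchanger that absorbs sodium in gut and kidney, was dim, with processed signals of 3.79 to 39.7. It cleared background on 8 of 9 middle arrays and on every early and late array. Its level averaged −1.42 ± 0.35 (SD, n = 9), then −0.63 ± 0.87, then −0.62 ± 0.43. The early arrays ran from −1.83 through a median of −1.55 to −0.71, the middle arrays from −1.25 through −0.74 to 1.55, and the late arrays from −1.37 through −0.69 to 0.23. The middle array of animal 9 stood at 1.55, with the next highest at −0.42, and the same animal was the lowest of 9 at the late stage. Between the early and middle stages SLC9A3 rose by 0.79 (SE 0.26, adjusted *P* = 0.0130), a 1.73-fold increase, and was higher in 9 of 9 animals, as were 25.4% of all probes. The change was 0.46 above the median change of all probes. In the total period it rose by 0.80 (adjusted *P* = 0.0382), higher in 8 of 9 animals, all but animal 9. The second-period change was 0.01 (adjusted *P* = 0.978).

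Animal 9 decided part of these values. Without it, SLC9A3 rose by 0.55 in the first period (adjusted *P* = 0.000916), by 0.37 in the second (adjusted *P* = 0.0114) and by 0.92 in the total period (adjusted *P* = 5.20e-05). Without any of the other 8 animals in turn, the total-period difference was 0.73 to 0.84 and its adjusted *P* was 0.0567 to 0.0995. It passed with only the early and late stages in the limma fit (adjusted *P* = 0.00246) and in limma without the 3 dim middle arrays (adjusted *P* = 0.000472). The methods' t-test (adjusted *P* = 0.00633) and the exact sign-flip test (adjusted *P* = 0.0326) also called it. In all, the total-period difference passed under 11 of 23 alternatives. That difference was 0.68 (adjusted *P* = 0.0680) under 75th percentile scaling, 0.54 (adjusted *P* = 0.659) when slide was a random block and 0.18 (adjusted *P* = 0.898) when scan day was. On the first scan day alone, SLC9A3 rose by 0.52 (adjusted *P* = 0.0197). It rose by 0.99 (adjusted *P* = 0.0264) when slide was a random block and by 2.41 (adjusted *P* = 0.0105) when slide was fixed. The fixed-block fit leaned heavily on animals 8 and 9, whose pairs of slides differed from those of animals 1 to 7. The outlying first-period change of animal 9, 2.70, therefore carried into that estimate. Within slide 2 the change was 0.19. Under cyclic loess normalization the first-period change was 0.52 (adjusted *P* = 0.0980), and without the 3 dim middle arrays it was 0.44 (adjusted *P* = 0.0285). Under normexp background correction SLC9A3 rose by 0.24 in the first (adjusted *P* = 0.00459) and by 0.21 in the total period (adjusted *P* = 0.0486).

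SLC16A3, the transporter that glycolytic cells use to export lactate, was lowest at the late stage. Its level was 0.65 ± 0.35 (SD, n = 9), 0.28 ± 0.45 and 0.01 ± 0.24 for the stages in order. It cleared background on 8 of 9 middle arrays and on every other array. The early arrays ran from 0.24 through a median of 0.56 to 1.29, the middle arrays from −0.32 through 0.22 to 0.85, and the late arrays from −0.45 through 0.00 to 0.35. The stages overlapped in each comparison. In the total period SLC16A3 fell by 0.64 (SE 0.15, adjusted *P* = 0.00501), a 1.56-fold decrease, and it was lower in 9 of 9 animals, as were 6.05% of all probes. In the first period it fell by 0.36 (adjusted *P* = 0.0376), lower in 7 of 9 animals, and the second-period change was −0.27 (adjusted *P* = 0.106). The first-period call was lost under 20 of 26 alternatives, among them quantile normalization (adjusted *P* = 0.0542) and a fit without the animal block (adjusted *P* = 0.0610), and it was lost without animal 1, 3, 4, 5, 8 or 9. The second-period change passed under 6 of 23 alternatives, at −0.35 to −0.46. The total-period call was lost with the slide (adjusted *P* = 0.177) or the scan day (adjusted *P* = 0.365) as a random block and held under the other 21 of 23 alternatives, among them normexp, where SLC16A3 fell by 0.26.

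SLC16A1, the monocarboxylate transporter MCT1, passed the test in no period. Its level was 6.70 ± 0.65 (SD, n = 9), 7.00 ± 0.86 and 6.76 ± 0.29. The early arrays ran from 5.49 through a median of 6.55 to 7.59, the middle arrays from 5.57 through 7.22 to 7.82, and the late arrays from 6.41 through 6.68 to 7.25. Animal 6 was the lowest at both the early and the middle stage, and the range among animals was narrowest at the late stage. The changes were 0.30 (SE 0.21, adjusted *P* = 0.212) in the first, −0.25 (adjusted *P* = 0.303) in the second and 0.06 (adjusted *P* = 0.899) in the total period. Under cyclic loess normalization SLC16A1 rose by 0.92 (adjusted *P* = 0.00233) and then fell by 1.09 (adjusted *P* = 0.000438), whereas under normexp background correction the changes were −0.19 (adjusted *P* = 0.613) and 0.47 (adjusted *P* = 0.189).

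**Figure D2:**
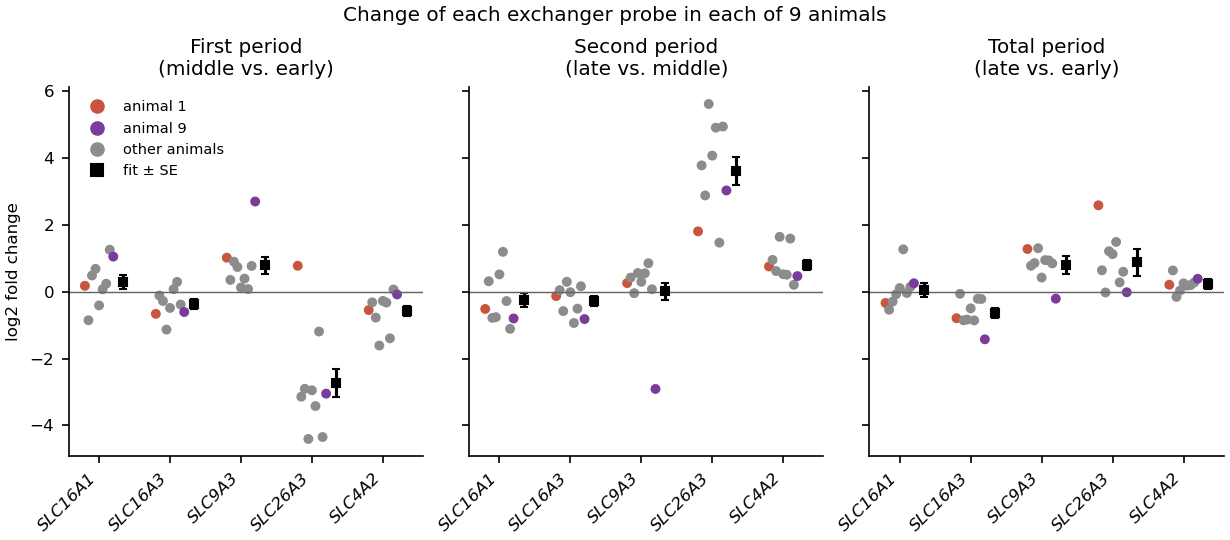
Log2 fold change of each measured exchanger probe in each of 9 animals (circles) and in the fit with its SE (squares), for the first, second and total periods. SLC26A3 moved furthest, with animal 1 on the other side of 0 in the first period, and the SLC9A3 change of animal 9 was 2.70 in the first period, then −2.91.

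Partners in transport were then compared within animals by an exact sign-flip test over 9 animals, with *P*-values adjusted over 6 tests of 2 pairs. Pairs with SLC9A2 or SLC4A4 were not compared, as these had no measured probe. The change of SLC26A3 minus that of SLC9A3 averaged −3.53 in the first period (SD 1.82, exact *P* = 0.00391, adjusted *P* = 0.0117), below 0 in 9 of 9 animals, and 3.61 in the second (SD 1.71, exact *P* = 0.00391, adjusted *P* = 0.0117), above 0 in 9 of 9. The exact *P* of 0.00391 is the smallest that 9 animals can give. Over the total period the mean difference between their changes was 0.08 (SD 0.69, exact *P* = 0.738, adjusted *P* = 0.886). Under cyclic loess normalization the difference of this pair was −2.64 in the first period and 2.43 in the second (adjusted exact *P* = 0.0156 in each). SLC16A1 rose relative to SLC16A3 over the total period by 0.70 (SD 0.78, exact *P* = 0.0195, adjusted *P* = 0.0391), with the difference above 0 in 8 of 9 animals. Scaling of a whole array cancels in a difference between probes, whereas a trend with brightness does not. Thus 75th percentile scaling, scaling without dim probes and keeping outlier spots gave the same value, which is no further check. Of the other alternatives, only the test without animal 2 kept the call (difference 0.84, adjusted exact *P* = 0.0156). In the rest the difference was 0.49 to 0.76, or as reported where only the other tests lost animals, with adjusted exact *P*-values of 0.0625 to 0.333. Their difference was 0.67 (exact *P* = 0.0547, adjusted *P* = 0.0820) for the first period and 0.03 (exact *P* = 0.941, adjusted *P* = 0.941) for the second.

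At the middle stage, where arrays differed most in brightness, the level of SLC16A1 tended to be higher on dimmer arrays. That relation passed the adjusted threshold by Pearson's r but not by Spearman's rho. Over the 9 animals, Pearson's r between its level and the log2 array median was −0.77 (exact permutation *P* = 0.00736, adjusted over 5 probes 0.0368) and Spearman's rho was −0.68 (exact permutation *P* = 0.0503, adjusted 0.214). Pearson's r was −0.71 without animals 4 and 6, whose arrays lay farthest from the median brightness, and −0.82 over the 7 arrays of slide 2. Because the level is the signal minus the array median, the array median enters both measures. For SLC16A3, SLC9A3, SLC26A3 and SLC4A2, Pearson's r was 0.27, −0.33, 0.03 and 0.55, with adjusted exact permutation *P*-values of 0.419 to 0.991 (n = 9). Spearman's rho was 0.08, −0.62, −0.18 and 0.32 (adjusted exact permutation *P* 0.214 to 0.843), and r without animals 4 and 6 was −0.36, −0.76, −0.38 and −0.05, and over slide 2 it was 0.39, −0.37, 0.02 and 0.77.

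Of 73 gene names listed for related transport functions, 55 were on the array and 32 were measured, by the same criterion as the exchangers. In the first period 12 of the 32 rose and 10 fell, and in the second 12 rose and 12 fell. In the total period 6 rose and 3 fell. Of these total-period calls, the rise of CFTR and the fall of SLC9A5 came from probes measured only through the higher of the stages compared. The split of the total period turned with the scaling, to 3 rising and 5 falling under 75th percentile scaling, 4 and 5 without dim probes, 3 and 4 under cyclic loess and 2 and 3 under quantile normalization. That of the first period was 15 rising and 6 falling under cyclic loess, and that of the second 11 rising and 14 falling under 75th percentile scaling. The called shares were 68.8%, 75% and 28.1%, near the 61.7%, 66.9% and 24.5% of all measured probes. Their median log2 change was 0.04, 0.16 and 0.12.

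Among monocarboxylate transporters and their chaperones, 4 of 7 measured genes rose and 2 fell in the first period. SLC16A8 (MCT3), a lactate transporter, rose most, by 1.71 (SE 0.17, adjusted *P* = 3.02e-07) in 9 of 9 animals, as did 25.4% of all probes. It then fell by 3.23 and ended 1.52 below the early stage. BSG (basigin, CD147), the chaperone that brings MCT1 and MCT4 to the membrane, fell by 1.17 (adjusted *P* = 2.78e-05) and rose by 1.27 in the second period, a course that neither SLC16A1 nor SLC16A3 had by the test. SLC16A10, an aromatic amino acid transporter, had the largest rise of the total period, 0.84 (adjusted *P* = 0.00295), with 5 of 9 middle arrays well above background. In the second period 2 of the 7 rose and 2 fell, and in the total period 1 rose and 1 fell.

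Of the other sodium/proton exchangers, 3 of 7 on the array were measured. SLC9A5 rose by 0.82 (adjusted *P* = 0.0140), then fell by 1.73, and was 0.91 lower in the total period (adjusted *P* = 0.0241). Its probe was well above background on 9 of 9 early, 7 of 9 middle and 7 of 9 late arrays. SLC9A5 therefore counted as measured only through the early stage. SLC9A9, which works in endosomes, rose by 0.41 in the total period (adjusted *P* = 0.0484).

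All 3 measured members of the other SLC4 transporters rose in the second period, when 39.0% of measured probes did. Of these, SLC4A7, a sodium bicarbonate cotransporter, rose by 1.22 (adjusted *P* = 0.000135) after a fall of 1.08 (adjusted *P* = 0.000561) in the first. The SLC4A7 probe was well above background on 5 of 9 middle arrays and the SLC4A11 probe on 6. SLC4A9 and SLC4A11 rose in the total period, the latter by 0.69 (adjusted *P* = 0.0164). Of the other SLC26 anion exchangers, SLC26A2 and SLC26A10 rose and SLC26A11 fell in the first period, and each went the other way in the second. SLC26A10 rose by 1.21 (adjusted *P* = 3.73e-06) and fell by 1.11, and SLC26A11, a lysosomal and membrane anion transporter, fell by 0.56 (adjusted *P* = 0.00511) and rose by 0.90. None of these 3 was called in the total period by limma.

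Among 13 measured scaffolds and regulators, 2 rose and 5 fell in the first period, and 4 rose and 4 fell in the second. PDZD3, a PDZ-domain scaffold, fell by 1.14 (adjusted *P* = 0.000153) and rose by 1.46. OXSR1, a kinase that acts on ion transporters, rose by 0.98 (adjusted *P* = 2.87e-05), and CHP2, a calcium-binding cofactor of sodium/proton exchangers, fell by 0.82 in the second period (adjusted *P* = 0.000137). CFTR, the chloride and bicarbonate channel, rose by 0.79 in the total period (adjusted *P* = 0.0433). Its probe was well above background on 7 of 9 early, 1 of 9 middle and 9 of 9 late arrays. It therefore counted as measured only through the late stage, where it was higher. The NHE3 scaffolds SLC9A3R1 and SLC9A3R2 passed the test in no period, with changes of 0.27 and −0.36 in the first. The 3 measured receptors for short-chain fatty acids and lactate, FFAR2, FFAR3 and HCAR1, rose in the first period, as did 45.3% of all probes, and fell in the second. The median of all probes moved the same way, by 0.32 and then −0.27. FFAR3 rose by 1.13 (adjusted *P* = 1.74e-05), and FFAR2 rose by 0.94, fell by 1.59 (adjusted *P* = 1.75e-07) and was 0.65 lower in the total period (adjusted *P* = 0.00986).

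**Figure D3:**
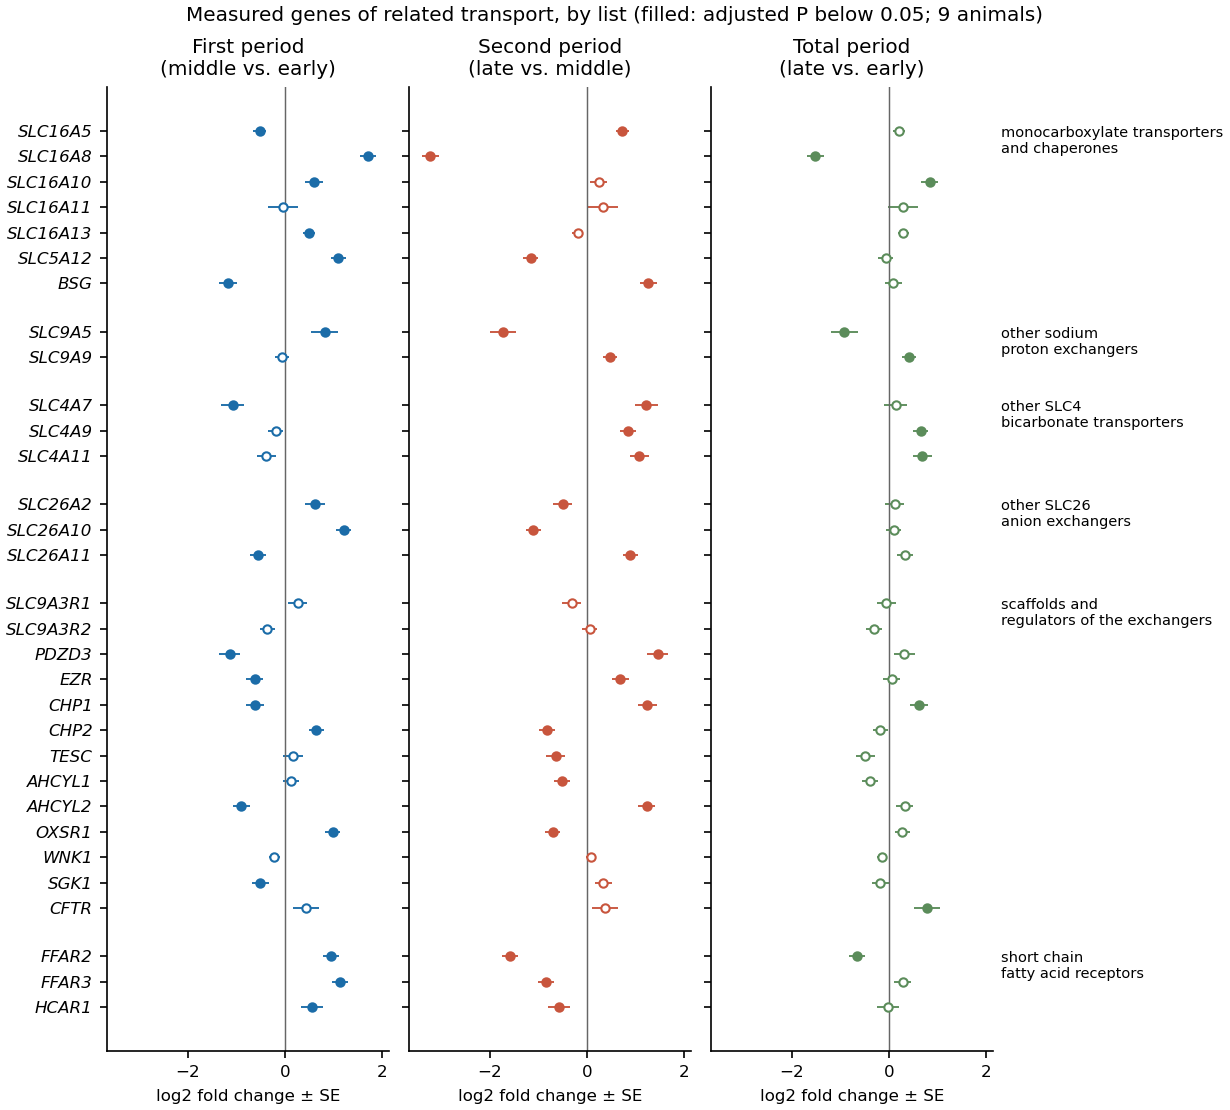
Log2 fold change with SE (horizontal axis) of measured genes of the related transport lists in the first, second and total periods over 9 animals, filled where the adjusted *P* was below 0.05. The 3 fatty acid and lactate receptors lie right of 0 in the first period and left of it in the second, and SLC4A7 and BSG lie the other way round.

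The probes whose levels ran most like those of each exchanger were sought by Pearson's r over the 27 arrays, among the 6764 bright probes that had a value on every array. The 27 points share 9 animals and 3 stages, and r is given as a description. SLC26A3 ran with SDCBP2 (r = 0.97), DNASE1L3 (r = 0.97) and EPCAM (r = 0.96), an epithelial cell adhesion molecule. SDCBP2 changed by −1.81 and 2.63 in the first and second periods, DNASE1L3 by −2.15 and 3.09 and EPCAM by −1.10 and 1.65. SLC4A2 ran with NONO (r = 0.94), QARS (now QARS1, r = 0.93) and ATXN1L (r = 0.92), and NONO changed by −1.38 and 1.47. SLC16A1 ran with NUDT13 (r = 0.89), ZNF575 (r = 0.87) and CISD3 (r = 0.86). SLC16A3 ran with SELPLG (r = 0.81), INPP5D (r = 0.79) and APBB1IP (r = 0.75), among them genes known from leukocytes. Over the total period these 3 changed by −0.84, −0.78 and −0.45, against −0.64 for SLC16A3. The part of leukocytes in this was not tested. SLC9A3 ran with a probe named HBE1 (r = 0.87), TRAPPC9 (r = 0.86) and PARL (r = 0.83).

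**Figure D4:**
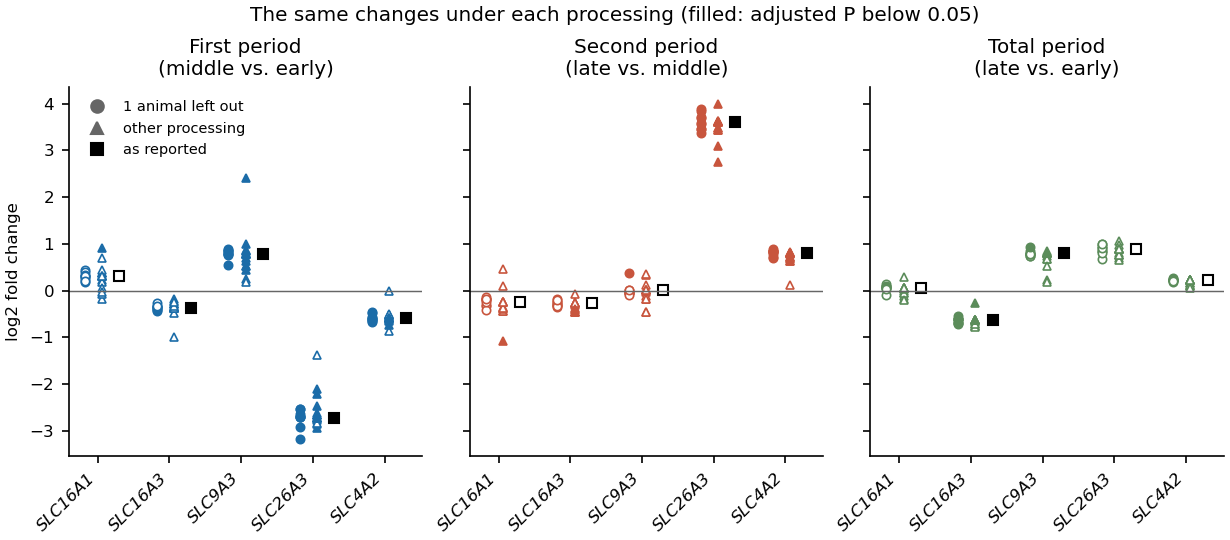
Log2 fold change of each measured exchanger probe with 1 animal left out (circles), under other processing (triangles) and as reported (squares), filled where the adjusted *P* was below 0.05. SLC26A3 stayed below 0 in the first and above 0 in the second period under every processing shown, while SLC16A1 lay on both sides of 0.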

How the data were processed

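The authors scanned the arrays with Agilent Feature Extraction (9.5 in the processing notes, 11.0.1.1 in the file headers) and deposited processed signal intensity, with the local background subtracted, and marks for spots well above background or outlying. They also deposited log2 values in a series table. Its column medians were −3.09 to −2.61, and it differed from 75th percentile scaling by −0.0207 to −0.00471, so its centering is known. It served as an alternative only.

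The array held 15646 spots, of which 15110 were not controls, with 15008 probes. As in the authors' methods, log2 processed signals were scaled on each array's median. Outlier spots were left missing and spots of a probe averaged. limma 3.58.1 (R 4.3.3) fitted stage means blocked by animal, with Benjamini-Hochberg adjustment over all 15008 probes. The procedure was tested on simulated data. Arrays were paired by animal, since each animal gave a biopsy in every stage. Their deviations from stage means correlated by 0.158 on average within animals (24 of 27 pairs above 0). Exact tests ran in scipy 1.17.1.

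Named genes were all member probes, the most raised and lowered of each list in each period, and the 3 probes most correlated with each member. Genes added in the text after their values were seen were SLC9A3R1, SLC9A3R2, SLC4A9, SLC26A2, HCAR1 and the cell type markers given by name. Some genes that this rule names are not reported here. Members and lists were chosen with earlier results of these data known. RefSeq symbols matched for all 6 accessions, and its coordinates, on another assembly, were not used. Alternatives were other scaling, background correction, filters, blocks and tests, and each animal left out. Arrays have no read depth, and their number and signal over background limit the precision.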

Additional observations from a re-analysis of the deposited data

Results flagged for a closer look

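Of 30 sets of 9 values (levels of 5 probes at 3 stages and their changes in 3 periods), 5 held an animal far from the rest by Dixon's criterion, which flags about 1 in 20 by chance. For SLC9A3, animal 9 stood at a log2 level of 1.55 at the middle stage, where the next animal was at −0.42, and its changes were therefore 2.70 in the first period (next 1.02) and −2.91 in the second (next −0.04). For SLC16A1, animal 6 rose by 1.27 in the total period, where the next was 0.25. For SLC4A2, animal 2 had the lowest early level, 1.37, with the next at 1.73. These single values have no repeat array, and their cause was not tested.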

How the results depend on the processing

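Of 360 recomputed log2 fold changes of the 5 measured probes, 280 kept their direction and side of the threshold, 43 lost the call, 13 gained it and 24 changed sign. With 1 animal left out, 3 to 4 exchangers were called in the first period, 2 to 3 in the second and 1 to 2 in the total period. The related transport lists gave 21 to 24, 23 to 24 and 5 to 8 calls, and the pairs 2 to 4.

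The methods' t-test called 3, 2 and 4 exchangers in the first, second and total periods, and with a fold change of 2 only SLC26A3, in the first and second. In the first period, 4 exchangers were called as reported, 2 under cyclic loess normalization, 2 with the slide as a random block, 1 with it as a fixed block and 0 in limma within slide 2, where 0 had an unadjusted *P* below 0.05 and only 1 array was of the early stage. The fixed-block call was that of SLC9A3, where the fit leaned heavily on animals 8 and 9. Without the replicate block for animals, 3 were called in the first period, as SLC16A3 (−0.36, adjusted *P* = 0.0610) was lost. The pairing changed no other call of a member. In the total period, 2 were called as reported, 1 under 75th percentile scaling, 1 in the series table, 4 by that t-test after Benjamini-Hochberg (SLC26A3 and SLC4A2 being added), and 0 by limma with slide or scan day as a random block, where 1 had an unadjusted *P* below 0.05 in each. The related lists gave 9 calls in that period, 5 under quantile normalization and 4 under normexp. Without the cattle that had a dim middle array, added after seeing the data, 0 of 6 pair tests passed the adjusted threshold and 3 had an unadjusted exact *P* below 0.05. The first- and second-period tests then held 6 animals and the total-period tests still 9. Over all probes, the first period gave 9986 calls, 1238 when slide was a fixed block and 7 within slide 2, and the total period 3019, 1170 under normexp, 250 with the slide and 170 with the scan day as a random block, 4814 with 2 stages in the fit, 4873 without the dim middle arrays and 4526 by the methods' t-test.

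Sign changes were in values that had not been called. The first-period change of SLC16A1 was −0.19 under normexp, −0.033 without dim arrays and −0.081 when slide was a fixed block. Its second-period change was 0.47 under normexp and 0.090 without dim arrays. Its total-period change was −0.064 under 75th percentile scaling, −0.13 under quantile and −0.18 under cyclic loess normalization, −0.011 without dim probes, −0.062 in the series table, −0.20 with the scan day as a random block and −0.095 to 0.13 with 1 animal left out. The second-period change of SLC9A3 was −0.18 under 75th percentile scaling, −0.030 under normexp, −0.13 without dim probes, −0.18 in the series table, −0.46 with slide or scan day as a random block and −0.10 to 0.37 with 1 animal left out. SLC16A1 against SLC16A3 gave −0.010 in the first period under normexp, and in the second −0.078 under quantile, −0.64 under cyclic loess and −0.23 to 0.19 with 1 animal left out. SLC26A3 against SLC9A3 gave −0.11 under quantile and −0.21 under cyclic loess in the total period and −0.072 to 0.20 with 1 animal left out. The cause of these differences was not tested.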
